A study of Mus musculus with 12 samples.

Results

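The nuclear genes of the mitochondrial respiratory chain were examined in glia of the postnatal mouse spinal cord. The members were the protein-coding genes whose symbols begin with Nduf, Uqcr, Cox4, Cox5, Cox6, Cox7, Cox8 or Atp5, together with Sdha, Sdhb, Sdhc, Sdhd, Cyc1 and Cycs. This rule gave 95 genes of the 53465 counted: 36 of complex I, 8 complex I assembly factors (Ndufaf1 to Ndufaf8), 4 of complex II, 9 of complex III, cytochrome c, 20 of complex IV and 16 of complex V. One more, Atp5s, carries the prefix without being a structural subunit and is given apart. Total RNA had been sequenced from C57BL/6 mice at postnatal day 7 that all carried the 2 reporters Aldh1L1-GFP, named for an astrocyte enzyme gene, and Olig2-tdTomato, named for a transcription factor of oligodendrocyte lineage cells and of some ventral astrocytes. Brachial and thoracic cord was dissociated with papain and the cells were sorted by fluorescence, and each of the fractions eGFP/tdTomato, eGFP and tdTomato holds 4 libraries, numbered 1, 2, 3 and 5. The labels call the libraries biological replicates and do not say whether a library holds cells of 1 animal or of several.

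Complex I oxidises NADH and complex II oxidises succinate, complex III passes the electrons of ubiquinol to cytochrome c, complex IV reduces oxygen, and complex V (ATP synthase) uses the resulting proton gradient. Each complex except complex II combines nuclear subunits with subunits encoded in mitochondria. Several nuclear subunits of complex IV exist as alternative isoforms, some of them known mainly from muscle, lung or testis. Astrocytes and oligodendrocytes both use glycolysis as well as respiration, and how far they rely on each has long been studied.

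Gene counts per library were 23915784 to 30299452 in the eGFP/tdTomato fraction, 12564767 to 27898597 in the eGFP fraction and 25460920 to 36505583 in the tdTomato fraction. The library eGFP replicate 1 stands apart: it is the shallowest, and 57.1% of its reads fell outside annotated genes, against 21.2 to 42.5% in the other 11 libraries. Summed astrocyte markers (12 genes) were 47200 to 55400 CPM (read counts scaled to a common library size with TMM factors) in the eGFP/tdTomato libraries, 34100 to 50800 CPM in the eGFP libraries and 249 to 350 CPM in the tdTomato libraries. Summed myelin markers (10 genes) were 1530 to 3190, 390 to 1280 and 111000 to 164000 CPM in the same order of fractions. Markers of mural cells and fibroblasts (12 genes) summed to 392 to 600 CPM in the eGFP/tdTomato libraries, 836 to 2160 CPM in the eGFP libraries and 10.2 to 21.9 CPM in the tdTomato libraries. Markers of ependyma (8 genes) summed to 12.6 to 19.8, 147 to 350 and 2.16 to 3.98 CPM in that order. Microglia and macrophage markers (10 genes) were at 33 to 44.9, 89.2 to 1040 and 21.8 to 45.3 CPM, endothelial markers (8 genes) at 10.4 to 23.3, 21.4 to 40.2 and 5.35 to 13 CPM, and neuron markers (9 genes) at 39.6 to 64.7, 62.1 to 77.4 and 433 to 650 CPM. Markers of oligodendrocyte progenitors (8 genes) were at 2330 to 3540, 880 to 2110 and 3010 to 4640 CPM, and erythrocyte markers (6 genes) at 44.2 to 84.3, 55.3 to 101 and 29.8 to 133 CPM. The summed mural, ependymal and microglial markers were thus highest in the eGFP libraries and the summed neuron markers in the tdTomato libraries. Single neuron markers went both ways. Against tdTomato, 2 of 9 were called higher and 2 lower in the eGFP fraction, and 6 had a positive log2 fold change. In the eGFP/tdTomato fraction 1 was called higher and 4 lower, and 4 were positive. The part of these cells in the comparisons was not tested. The 13 respiratory chain subunits encoded in mitochondria were listed at 0 in every library, so the mitochondrial partners of these complexes could not be followed. In sorted bulk RNA, a lower level can come from fewer cells of a type or from less RNA per cell, and the 2 cannot be told apart.

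Summed over all 95 members, the chain came to 15200 ± 1130 CPM (SD, n = 4) in the eGFP/tdTomato fraction. It came to 13000 ± 3050 CPM in the eGFP fraction and 14100 ± 1510 CPM in the tdTomato fraction. These sums are on the TMM scale and are not shares of the gene counts. The TMM factors ran from 0.7763 in tdTomato replicate 3 to 1.443 in eGFP replicate 1. The eGFP/tdTomato libraries held 13570 to 16190 CPM of these transcripts, the eGFP libraries 8994 to 15730 CPM and the tdTomato libraries 11830 to 15090 CPM. The fractions overlapped, and the lowest value, 8994 CPM, belongs to eGFP replicate 1. Complex I made up the largest part, with a summed 4660 ± 292 CPM in the eGFP/tdTomato libraries, 4330 ± 981 CPM in the eGFP libraries and 4380 ± 517 CPM in the tdTomato libraries. Complex III was the complex whose sums did not overlap between the eGFP/tdTomato libraries, at 2160 to 2470 CPM, and the tdTomato libraries, at 1490 to 2020 CPM, while the sums of complexes I, II, IV and V overlapped. Per length, complex III made up 16.5 ± 0.63% of the chain in eGFP/tdTomato libraries and 15.9 ± 0.41% in eGFP libraries, against 13.8 ± 0.42% in tdTomato libraries, and complex I made up 32.9%, 35.7% and 32.8%. No test was run on these sums and shares.

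**Figure D1:**
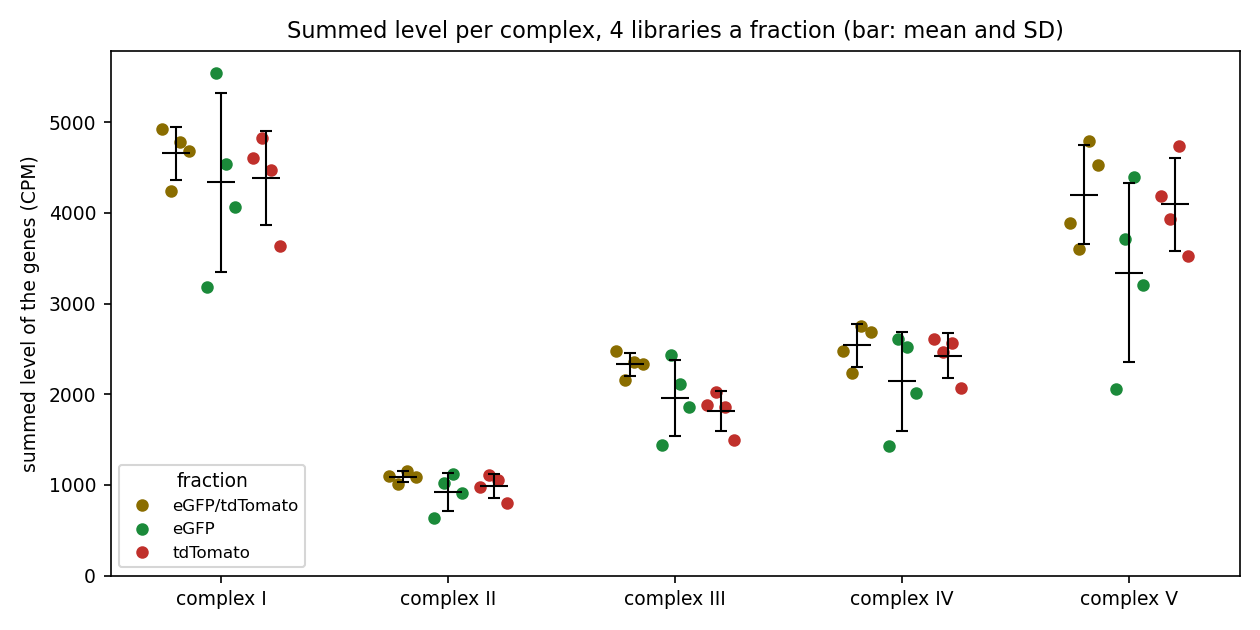
Summed level in CPM of the genes of complexes I to V in each library (points), with the mean and SD of each fraction (black bars) and the eGFP/tdTomato, eGFP and tdTomato fractions from left to right. The sums of the fractions lie close together, and 1 eGFP library (replicate 1) is the lowest of its fraction in every complex.

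Levels per length, which allow genes to be compared with each other, were taken as CPM per kilobase of the longest principal transcript and averaged over the 12 libraries. In complex IV the highest was Cox6b1 at 566 CPM per kilobase. In complex III it was Uqcr11 at 587, in complex V it was Atp5b, the catalytic beta subunit, at 546, and in complex I it was the small subunit Ndufa1 at 427 CPM per kilobase. Cytochrome c (Cycs), whose annotated transcript is long, stood at 33.1 CPM per kilobase. The assembly factors, which help to build complex I but are not part of it, were lower than most subunits, with a median of 19 CPM per kilobase over 8 genes, against 103 CPM per kilobase over the 36 complex I subunits. Of the 95 members, 87 averaged at least 10 CPM. The 8 under 10 CPM were all isoform genes of complex IV: Cox4i2, Cox6a2, Cox6b2, Cox7a1, Cox7b2, Cox8b, Cox8c and Ndufa4l2. Cox6a2 and Cox8c did not pass the filter on low counts, which left 93 members tested.

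The first comparison asked whether cells with both reporters differ from cells with the Aldh1L1 reporter alone. With edgeR's quasi-likelihood test and p-values adjusted over all 29361 genes tested, 0 of 93 members were called higher and 0 lower in the eGFP/tdTomato fraction at an adjusted p under 0.05. Over all genes tested, 0.814% were called higher and 1.67% lower, and among protein-coding genes with a mean of at least 10 CPM the shares were 2.18% and 2.5%, so few calls could be looked for among 93 genes. Without adjustment, 5 members had p under 0.05, limma-voom called 0 members in either direction, and DESeq2 called 0 higher and 1 lower. The lowest adjusted p among members was 0.31, for Ndufs1, the largest subunit of complex I. Ndufs1 had 193, 176, 190 and 182 CPM in the eGFP/tdTomato libraries, against 87.7, 146, 146 and 151 CPM in the eGFP libraries. The groups did not overlap, and the lowest eGFP value is again replicate 1.

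The 95% intervals show what these 4 against 4 libraries could resolve. For 86 of 93 members the interval of the log2 fold change lay within a 2-fold change in either direction, and for 40 it lay within 1.5-fold. The 7 exceptions to the first were the 6 isoform genes under 10 CPM and Atp5b, with 1158 ± 290 CPM in the eGFP/tdTomato fraction and 775 ± 370 CPM in the eGFP fraction (log2 fold change 0.58, interval −0.08 to 1.24). Cytochrome c was measured at 110 ± 16.4 CPM in the eGFP/tdTomato and 90.3 ± 24.9 CPM in the eGFP fraction (0.28, interval −0.13 to 0.70). The members' median log2 fold change was 0.19, with 75 positive and 18 negative values, beside −0.02 over all genes tested and 0.14 over protein-coding genes with a mean of at least 10 CPM. Without eGFP replicate 1 this median was −0.01, so its sign rests on that library.

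The other comparisons set each fraction with the Aldh1L1 reporter against the fraction with the Olig2 reporter alone. They share the 4 tdTomato libraries, so their results are given side by side and neither adds independent weight to the other. In the eGFP/tdTomato fraction 13 of 93 members were called higher than in the tdTomato fraction and 4 lower. Over all genes, 16.8% were called higher and 12.4% lower, and among protein-coding genes with a mean of at least 10 CPM 24.8% and 27.6%. In the eGFP fraction 11 of 93 members were called higher than in the tdTomato fraction and 10 lower, where 20.4% and 14.9% of all genes and 23.6% and 34.7% of protein-coding genes with a mean of at least 10 CPM were called. Of the 87 members with a mean of at least 10 CPM, 8 were called higher and 3 lower in the eGFP/tdTomato fraction, and 6 higher and 9 lower in the eGFP fraction. These shares lie under those of other protein-coding genes of such levels. All 6 tested members under 10 CPM were called in both comparisons, 5 of them higher and Cox6b2 lower. No share of calls was taken over other genes under 10 CPM. Whether 6 of 6 is more than among other tested genes of such low levels was therefore not tested.

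The counts of called members depended on single libraries, and for each single library named here the shares over all genes moved the same way. This does not hold for the covariate given further on. In the eGFP/tdTomato fraction the 4 lower members became 15 when eGFP replicate 1 was left out and 9 when eGFP/tdTomato replicate 3 was, became 1 without tdTomato replicate 1, and became 2 without tdTomato replicate 2, tdTomato replicate 3, eGFP/tdTomato replicate 2 or eGFP/tdTomato replicate 5. The 13 higher members became 7 without eGFP/tdTomato replicate 3 or without eGFP replicate 5. In this comparison 12.4% of all genes were called lower with all 12 libraries. This share rose to 18.1% once eGFP replicate 1 was dropped, and to 15.5% once eGFP/tdTomato replicate 3 was. It fell to between 9.08% and 10.1% for the other libraries named for lower calls. The share called higher fell from 16.8% to 11.9% (eGFP/tdTomato replicate 3 dropped) and 12% (eGFP replicate 5 dropped). In the eGFP fraction the 10 lower members became 5 without tdTomato replicate 1 or 2, 6 without tdTomato replicate 3, and 15 when eGFP/tdTomato replicate 3 was left out. The 11 higher members became 6 without eGFP/tdTomato replicate 3 or eGFP replicate 5. Over all genes, lower calls in the eGFP fraction were 14.9%, and 11.1 to 12.2% without tdTomato replicate 1, 2 or 3. They were 17.8% without eGFP/tdTomato replicate 3. Higher calls went from 20.4% to 15.7% without eGFP/tdTomato replicate 3 and 13.9% without eGFP replicate 5. With the share of reads outside genes as a covariate, 43 members were called higher and 3 lower in the eGFP/tdTomato fraction, and 27 higher and 3 lower in the eGFP fraction, while 18.2% and 11.8% of all genes were called in the first comparison and 18.6% and 12.3% in the second. The members' median log2 fold change was 0.13 for the eGFP/tdTomato fraction, beside 0.70 over all genes and −0.14 over protein-coding genes with a mean of at least 10 CPM, and it turned negative when eGFP replicate 1 (−0.10), eGFP/tdTomato replicate 3 (−0.21) or eGFP replicate 5 (−0.11) was left out, with a filter of 1 CPM (−0.03), with only these fractions in the fit (−0.03) and without the 3 libraries numbered 3 (−0.24). For the eGFP fraction it was −0.05, beside 0.79 and −0.26, and it became 0.12 when the 3 libraries numbered 1 were left out and 0.23 with the share of reads outside genes as a covariate.

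**Figure D2:**
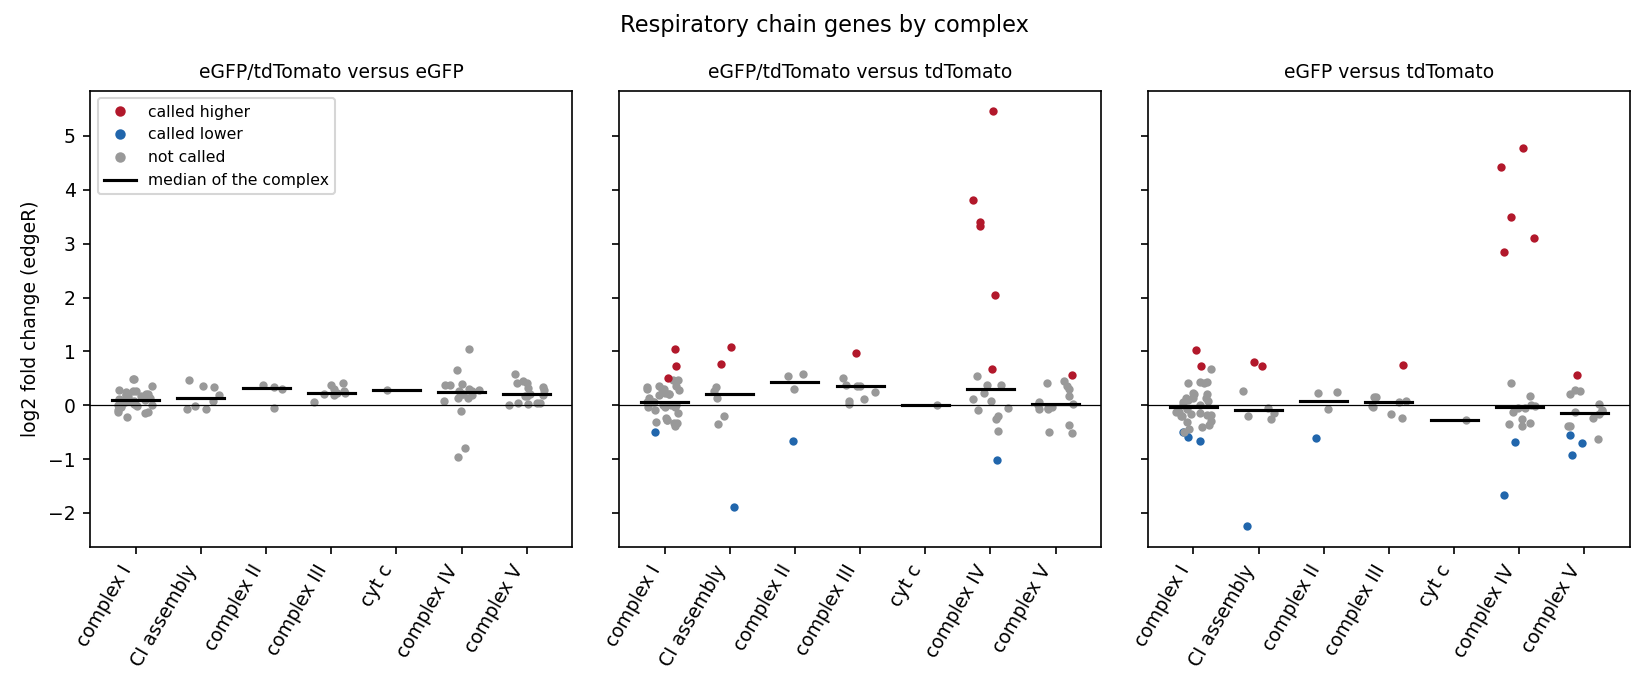
The log2 fold change of each tested member, grouped by complex, in the comparisons named above the panels. Red points were called higher, blue points lower and grey points not called, and black lines mark the median of a complex. The points far from 0 in the panels against tdTomato are the isoform genes of complex IV and the assembly factor Ndufaf2.

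Among the 36 subunits of complex I, 3 were called higher and 1 lower in the eGFP/tdTomato fraction, and 2 higher and 3 lower in the eGFP fraction, than in the tdTomato fraction. Ndufa1 (chrX:37187588-37191163 on GRCm38), a small membrane subunit needed for assembly, rose in both. It had 221, 203, 212 and 232 CPM in the eGFP/tdTomato libraries and 179, 289, 196 and 195 CPM in the eGFP libraries, against 108, 127, 96.9 and 89.2 CPM in the tdTomato libraries. Every library of either eGFP-bearing fraction lay above every tdTomato library. The log2 fold change was 1.04 ± 0.18 (SE, edgeR adjusted p = 0.000359) for the eGFP/tdTomato and 1.03 ± 0.18 (adjusted p = 0.00036) for the eGFP fraction. Ndufa13, also called GRIM-19, was another that rose in both, with 242 ± 20.2 CPM in the eGFP/tdTomato and 242 ± 59.9 CPM in the eGFP fraction against 146 ± 24.6 CPM in the tdTomato fraction (adjusted p = 0.00886 and 0.00742 by edgeR). Its calls were lost without eGFP/tdTomato replicate 3 and without eGFP replicate 5, and Tssk6 on the other strand covers 30% of its exon length.

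Core subunits of complex I carry the flavin and the iron-sulphur clusters. Ndufs1, which holds several of these clusters, fell in the eGFP fraction by 0.51 on the log2 scale (edgeR adjusted p = 0.0458), a call that 7 of the 12 libraries could each undo when left out. In the eGFP/tdTomato fraction Ndufs1 averaged 185 ± 7.46 CPM, against 189 ± 26.6 CPM in the tdTomato fraction. The core subunits Ndufs3, Ndufs7, Ndufs8, Ndufv1 and Ndufv2 were not called, with log2 fold changes of −0.33 to 0.36 in the eGFP/tdTomato fraction and −0.50 to 0.13 in the eGFP fraction. With the replicate number as a block, Ndufv2 passed as lower in the eGFP fraction (adjusted p = 0.0391). Ndufs5 fell in the eGFP fraction (−0.59, adjusted p = 0.0482), Ndufv3 fell in the eGFP/tdTomato fraction (−0.50, adjusted p = 0.0449) and Ndufc1 rose there (0.50, adjusted p = 0.0436); each of these calls was lost without any one of at least 7 libraries.

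**Figure D3:**
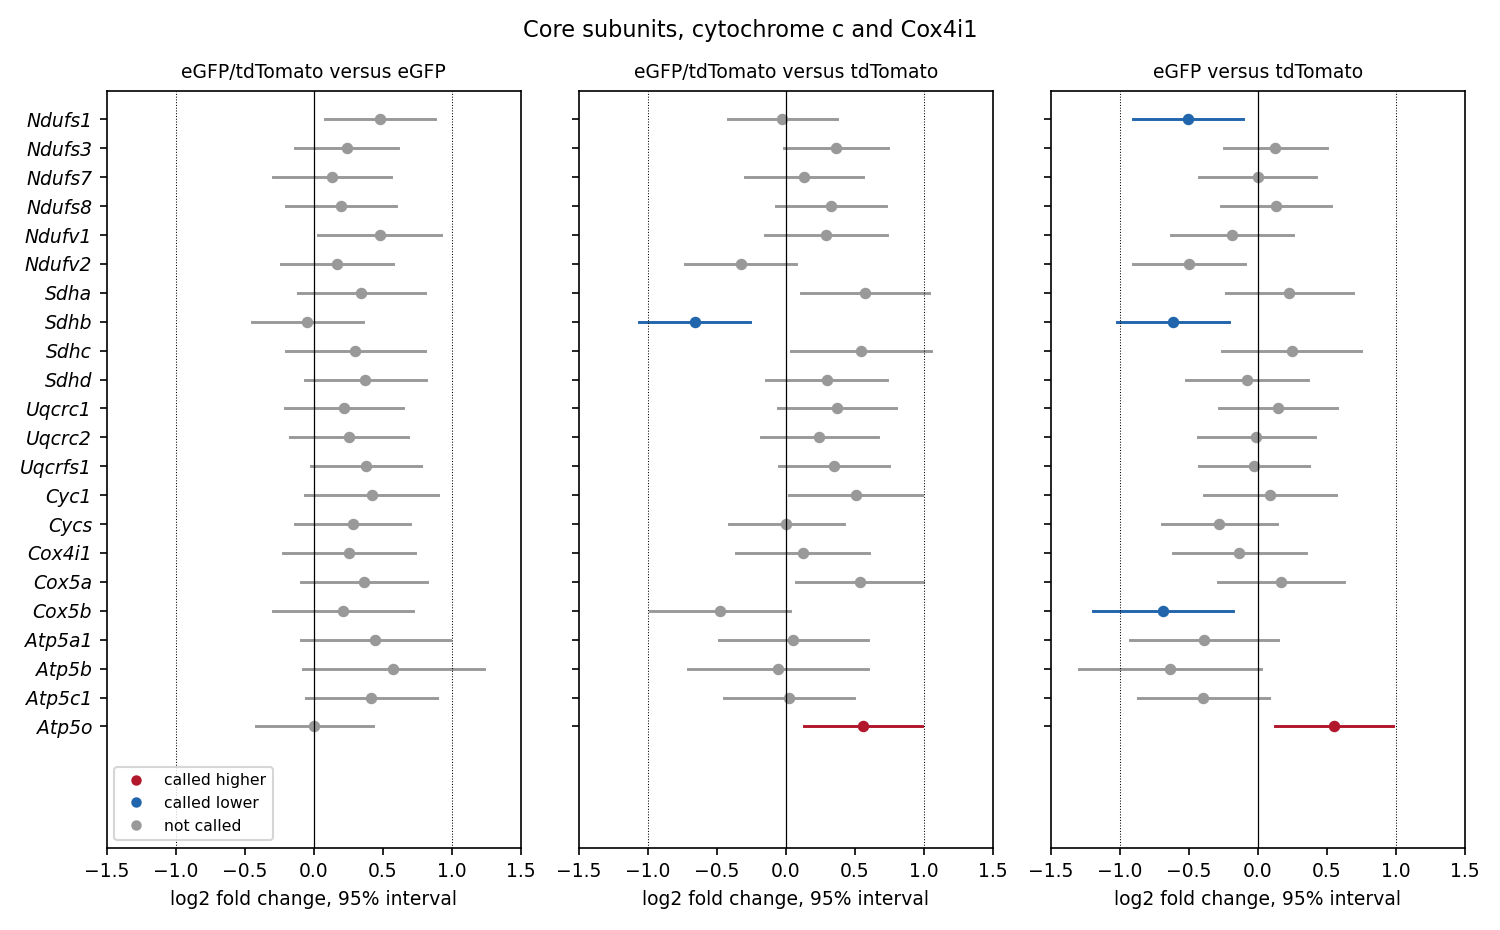
The log2 fold change of 22 genes, most of them subunits that form the catalytic or electron-carrying core of the chain, with its 95% interval, in the comparisons named above the panels (dotted lines mark a 2-fold change in either direction, colours as called by edgeR). In the panel of eGFP/tdTomato versus eGFP no subunit is coloured, and in the panels against tdTomato the coloured ones are Sdhb and Atp5o in both and Ndufs1 and Cox5b in the panel of eGFP versus tdTomato.

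Ndufaf2 stood out among the 8 complex I assembly factors. It is a chaperone of late complex I assembly, also known as B17.2L, and lies at chr13:108002715-108158623. It had 15.4, 13.5, 21.7 and 18.9 CPM in the eGFP/tdTomato libraries and 7.19, 15.2, 17.3 and 14.5 CPM in the eGFP libraries, against 69.4, 57.7, 73.1 and 58.0 CPM in the tdTomato libraries. The highest value of either eGFP-bearing fraction was under the lowest tdTomato value by more than 2-fold. Ndufaf2 fell by 1.89 on the log2 scale in the eGFP/tdTomato fraction (SE 0.25, edgeR adjusted p = 2.15e-05) and by 2.25 in the eGFP fraction (SE 0.25, adjusted p = 3.71e-06), and it was called in all 25 alternative settings of both comparisons. The long non-coding gene B230220B15Rik, on the other strand, covers 65.6% of the exon length of Ndufaf2, and the strand mode of the counting is not given in the sources used here. B230220B15Rik itself had 0.0738 to 0.518 CPM over the 12 libraries.

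The assembly factors Ndufaf6 and Ndufaf8 moved the other way. Ndufaf6 had 20.1 ± 3.35 CPM in the eGFP/tdTomato and 15.8 ± 1.51 CPM in the eGFP fraction, against 9.46 ± 2.69 CPM in the tdTomato fraction, with log2 fold changes of 1.08 (SE 0.22, edgeR adjusted p = 0.00113) and 0.74 (SE 0.22, adjusted p = 0.0148). Ndufaf8 had 22.4 ± 2.76 and 22.7 ± 2.67 CPM, against 13.1 ± 1.44 CPM in the tdTomato fraction (0.77 and 0.80, adjusted p = 0.0029 and 0.00205). Both calls of Ndufaf8, and the call of Ndufaf6 in the eGFP fraction, were lost without eGFP/tdTomato replicate 3 or eGFP replicate 5, and that call of Ndufaf6 also without eGFP replicate 1, tdTomato replicate 3 or tdTomato replicate 5. The remaining 5 assembly factors were not called. Outside the naming rule, 9 further complex I assembly factors were tested, of which 1 was called higher in the eGFP/tdTomato fraction (Dmac2, log2 fold change 0.64) and 2 in the eGFP fraction (Nubpl, 0.82, and Dmac2, 0.76), and 0 were called lower in either.

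In complex II, which also serves the tricarboxylic acid cycle, the iron-sulphur subunit Sdhb was the one called, as lower in both comparisons. Sdhb had 307, 251, 234 and 216 CPM in the eGFP/tdTomato libraries and 238, 332, 240 and 231 CPM in the eGFP libraries, against 431, 474, 376 and 313 CPM in the tdTomato libraries. All eGFP/tdTomato libraries lay under all tdTomato libraries, and 1 eGFP library did not. It fell by 0.66 (SE 0.19, edgeR adjusted p = 0.0147) and by 0.62 (SE 0.19, adjusted p = 0.0191) on the log2 scale. Sdha, the flavoprotein subunit that binds succinate, had 456 ± 31.3 CPM in the eGFP/tdTomato fraction and 359 ± 113 CPM in the eGFP fraction, against 306 ± 51.1 CPM in the tdTomato fraction, and was not called in either comparison (0.57, adjusted p = 0.0599, and 0.23, adjusted p = 0.401), although with the replicate number as a block the first passed (adjusted p = 0.0216). The membrane anchors Sdhc and Sdhd were not called either, at 0.55 and 0.30 in the eGFP/tdTomato fraction and 0.25 and −0.08 in the eGFP fraction. The call of Sdhb was lost without tdTomato replicate 1 or 2 in both comparisons, and without eGFP/tdTomato replicate 5 in the first of them.

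In complex III, 1 of 9 subunits was called in each comparison, and it was the same gene. Uqcr10, a small subunit also known as QCR9, had 273, 216, 229 and 257 CPM in the eGFP/tdTomato libraries and 159, 267, 212 and 192 CPM in the eGFP libraries, against 139, 140, 118 and 99.2 CPM in the tdTomato libraries. No library of either eGFP-bearing fraction reached down to the tdTomato range. The log2 fold changes were 0.97 (SE 0.19, edgeR adjusted p = 0.000804) and 0.74 (SE 0.19, adjusted p = 0.00557), and the second call was lost without eGFP/tdTomato replicate 3 or eGFP replicate 5. All 9 subunits of complex III had a positive log2 fold change in the eGFP/tdTomato fraction, with a median of 0.35, and 5 of 9 in the eGFP fraction, with a median of 0.06. The Rieske protein Uqcrfs1, the core protein Uqcrc1 and cytochrome c1 (Cyc1) were at 0.35, 0.37 and 0.51 in the eGFP/tdTomato fraction and passed in neither comparison, except Cyc1 in the first with the replicate block (edgeR adjusted p = 0.0392). Cytochrome c itself had 130, 98.9, 94.2 and 117 CPM in the eGFP/tdTomato libraries and 73.6, 127, 76.2 and 84.2 CPM in the eGFP libraries, against 114, 125, 105 and 94.9 CPM in the tdTomato libraries, and was not called (0.00 and −0.28).

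Complex IV held the largest differences, and they lay in isoform genes of low level. Cox4i2, which replaces Cox4i1 in lung and is known from pericytes and from cells that sense oxygen, lies at chr2:152754173-152765037. It had 3.61, 3.31, 2.71 and 3.81 CPM in the eGFP/tdTomato libraries and 7.13, 4.62, 7.53 and 6.94 CPM in the eGFP libraries, against 0.178, 0.271, 0.0744 and 0.406 CPM in the tdTomato libraries. These CPM rest on 72 to 106 reads per eGFP/tdTomato library and 100 to 200 reads per eGFP library, against 2 to 11 reads per tdTomato library. Cox4i2 rose by 3.82 on the log2 scale in the eGFP/tdTomato fraction (SE 0.44, edgeR adjusted p = 5.68e-06) and by 4.78 in the eGFP fraction (SE 0.46, adjusted p = 6.23e-07). All 4 eGFP/tdTomato libraries lay under all 4 eGFP libraries, but this difference was not called (log2 fold change −0.96, adjusted p = 0.322).

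Per length, Cox4i2 made up 0.857 ± 0.175% of the Cox4 pair in eGFP/tdTomato libraries, 2.18 ± 1.10% in eGFP libraries and 0.0672 ± 0.0464% in tdTomato libraries (SD, n = 4). The common isoform Cox4i1, a subunit that regulates the enzyme, had 413 ± 51.8, 345 ± 115 and 379 ± 35.5 CPM in the same fractions and was called in no comparison. Ndufa4l2, a paralogue of the complex IV subunit Ndufa4 that is known as a gene induced by hypoxia and as a pericyte gene, followed the same order of levels. It had 0.852, 0.837, 1.05 and 1.04 CPM in the eGFP/tdTomato libraries and 2.23, 1.25, 1.28 and 1.81 CPM in the eGFP libraries, against 0.356, 0.211, 0.149 and 0.184 CPM in the tdTomato libraries. It rose by 2.06 (SE 0.60, edgeR adjusted p = 0.0167) and by 2.85 (SE 0.62, adjusted p = 0.0018) on the log2 scale, the first of these not without eGFP/tdTomato replicate 3, eGFP replicate 5 or tdTomato replicate 3. Ndufa4 was not called, with 271 ± 21.5, 222 ± 58.0 and 230 ± 21.1 CPM.

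Levels of mural cell genes were read beside those of Cox4i2 and Ndufa4l2. Of the 12 mural and fibroblast markers, 9 in eGFP/tdTomato libraries and 10 in eGFP libraries were called higher than in tdTomato libraries, and 5 were called lower in the eGFP/tdTomato libraries when these were set against the eGFP libraries. Among those specific to pericytes, Kcnj8 had 0.989 to 2.63 CPM in the eGFP/tdTomato libraries, 2.07 to 3.51 CPM in the eGFP libraries and 0 to 0.602 CPM in the tdTomato libraries, and Rgs5 had 4.93 to 8.01, 6.60 to 13.9 and 0.701 to 3.25 CPM. Higd1b, a further pericyte gene, had 0.0753 to 1.13, 0.565 to 1.84 and 0 to 0.443 CPM and was not called. In the same order, Pdgfrb had 11.1 to 21.6, 11.3 to 36 and 0.372 to 1.37 CPM. Abcc9 had 0.678 to 5.46, 1.62 to 6.8 and 0.372 to 2.84 CPM. Myl9 had 24 to 29, 23.2 to 42.9 and 0.184 to 1.93 CPM, and Vtn 1.02 to 2.67, 4.82 to 18.6 and 0.295 to 1.35 CPM. Of these mural genes, all but Vtn overlapped between the eGFP/tdTomato and eGFP libraries. The fibroblast gene Dcn had 2.71 to 5.98, 67.3 to 673 and 0.558 to 2.69 CPM. No marker of the list was at 0 throughout a fraction. The part of these cells in the levels of Cox4i2 and Ndufa4l2 was not tested.

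The muscle isoforms Cox7a1 and Cox8b and the testis isoform Cox7b2 were also higher in both eGFP-bearing fractions. Cox7a1 (chr7:30184144-30186078), known from heart and skeletal muscle and from brown fat, had 2.59, 1.75, 3.39 and 3.41 CPM in the eGFP/tdTomato libraries and 1.23, 3.60, 2.26 and 2.49 CPM in the eGFP libraries, against 0.312, 0.0903, 0.372 and 0.332 CPM in the tdTomato libraries. No value of the eGFP-bearing fractions overlapped the tdTomato range. The log2 fold changes were 3.32 (SE 0.56, edgeR adjusted p = 0.000226) and 3.11 (SE 0.55, adjusted p = 0.000352). Cox7a1 took 2.82 ± 0.564% of the pair with Cox7a2 per length in eGFP/tdTomato libraries and 2.75 ± 0.730% in eGFP libraries, against 0.279 ± 0.130% in tdTomato libraries, while Cox7a2 itself was not called.

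Cox7b2 had 1.06, 3.55, 3.77 and 1.70 CPM in the eGFP/tdTomato libraries and 1.67, 5.40, 2.48 and 1.24 CPM in the eGFP libraries, against 0.0445, 0.391, 0.223 and 0.258 CPM in the tdTomato libraries. It rose by 3.40 (SE 0.70, edgeR adjusted p = 0.00136) and 3.50 (SE 0.70, adjusted p = 0.000972) on the log2 scale, with a wide spread within fractions. Cox8b had 30, 45, 37 and 40 reads in the eGFP/tdTomato libraries and 17, 20, 12 and 12 reads in the eGFP libraries, against 0, 0, 0 and 3 reads in the tdTomato libraries. Pooled over libraries, its level was 51.5 times that of the tdTomato fraction in the eGFP/tdTomato fraction (95% interval 17.3 to 252, counting error only) and 24.1 times in the eGFP fraction (7.86 to 120). edgeR called it in both comparisons (adjusted p = 0.00102 and 0.00377). It remained a trace beside Cox8a, at 0.838 ± 0.276% of the Cox8 family per length in eGFP/tdTomato libraries, 0.606 ± 0.419% in eGFP libraries and 0.024 ± 0.0479% in tdTomato libraries.

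Markers of striated muscle (8 genes) summed to 49.2, 70.5, 16 and 49.1 CPM in the eGFP/tdTomato libraries and 133, 27.6, 20.9 and 49.3 CPM in the eGFP libraries, against 13, 18.1, 7.81 and 33.8 CPM in the tdTomato libraries. Of the 7 tested, 2 (Myh8 and Tnnt3) were called higher in each eGFP-bearing fraction than in the tdTomato fraction, and Tnnc2 was at 0 in all tdTomato libraries. In the same order of libraries, Cox8b had 1.02, 1.79, 1.39 and 1.48 CPM in the eGFP/tdTomato fraction and 0.947, 0.924, 0.452 and 0.453 CPM in the eGFP fraction, beside the Cox7a1 levels already listed. The part of muscle RNA in the levels of Cox7a1 and Cox8b was not tested. The muscle-specific Cox6a2 and the testis-specific Cox8c were near the limit of detection, with 0 to 12 and 0 to 10 reads per library.

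Cox6b2, the testis isoform of Cox6b, ran opposite to the other isoforms. It had 3.92, 3.35, 4.33 and 4.26 CPM in the eGFP/tdTomato libraries and 2.06, 1.85, 3.73 and 2.45 CPM in the eGFP libraries, against 8.86, 5.96, 9.67 and 7.64 CPM in the tdTomato libraries. The tdTomato libraries lay above all others. Cox6b2 fell by 1.02 on the log2 scale in the eGFP/tdTomato fraction (SE 0.29, edgeR adjusted p = 0.0149) and by 1.66 in the eGFP fraction (SE 0.30, adjusted p = 0.000379), the first of these not without tdTomato replicate 1, tdTomato replicate 3 or eGFP/tdTomato replicate 2. Its share of the pair with Cox6b1 was 1.21 ± 0.0325%, 0.873 ± 0.269% and 2.11 ± 0.412% per length in the eGFP/tdTomato, eGFP and tdTomato fractions.

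**Figure D4:**
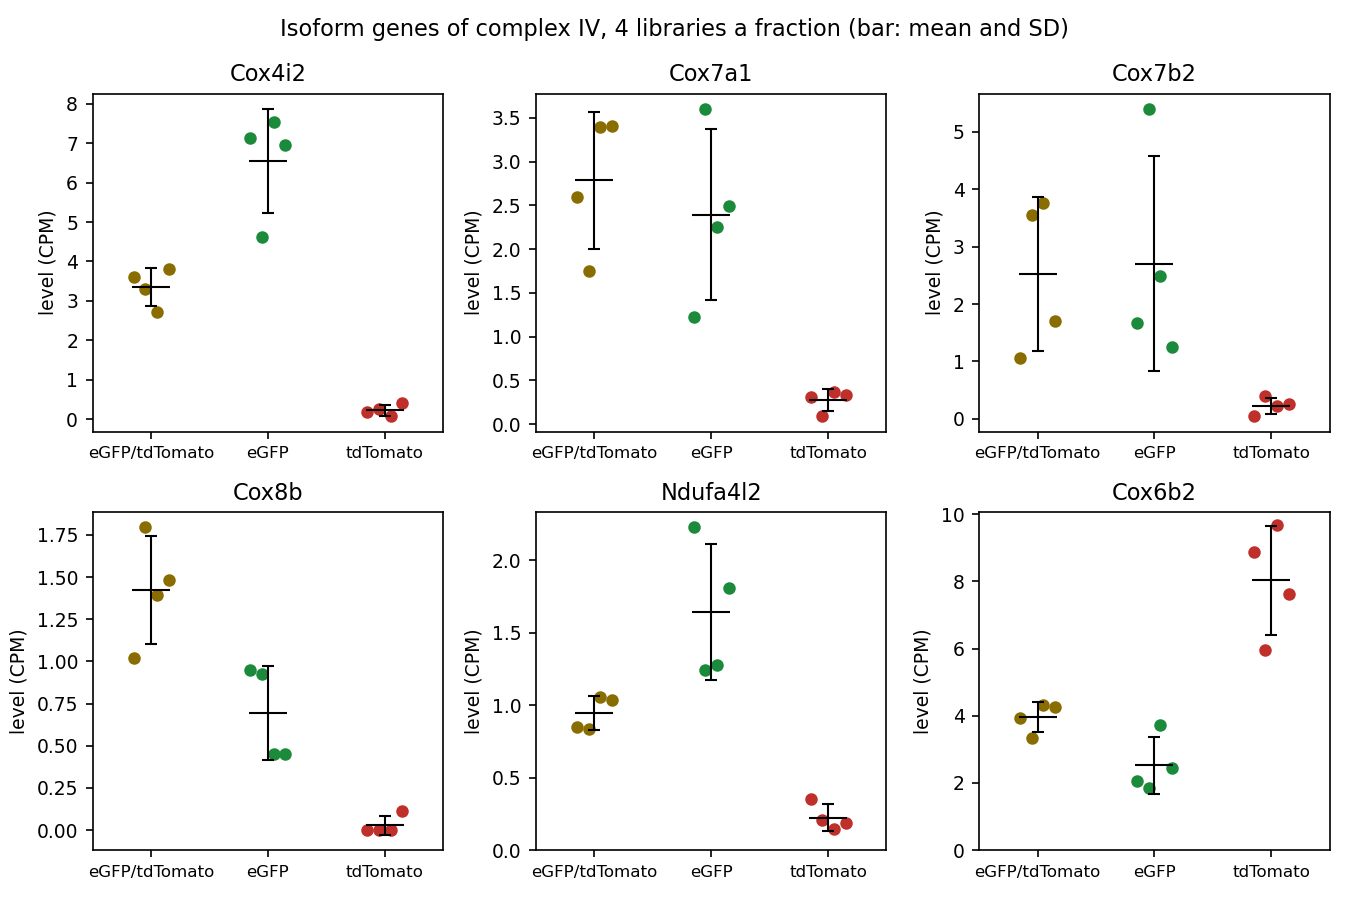
Level in CPM of 6 isoform genes of complex IV in each library (points, linear axes), with the mean and SD of 4 libraries in black and the eGFP/tdTomato, eGFP and tdTomato fractions from left to right. Cox4i2, Cox7a1, Cox7b2, Cox8b and Ndufa4l2 are lowest in every tdTomato library, and Cox6b2 is highest there.

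The abundant subunits of complex IV varied less. Cox6c rose in the eGFP/tdTomato fraction, with 211 ± 17.2 CPM against 132 ± 5.56 CPM in the tdTomato fraction (log2 fold change 0.68, SE 0.18, edgeR adjusted p = 0.00814), and was not called in the eGFP fraction (175 ± 40.1 CPM, adjusted p = 0.0854). The first call was lost without eGFP/tdTomato replicate 3 or eGFP replicate 5. Cox5b, which binds zinc, fell in the eGFP fraction, with 115 ± 33.7 CPM against 185 ± 43.4 CPM (−0.69, SE 0.24, adjusted p = 0.0352), a call lost without any one of tdTomato replicates 1, 2 and 3. Its partner Cox5a was not called (0.54, adjusted p = 0.0763, and 0.17, adjusted p = 0.532), and passed in the first with the replicate block (adjusted p = 0.0424). Cox6a1, Cox6b1, Cox7a2, Cox7a2l, Cox7b and Cox8a were called in no comparison, with log2 fold changes of −0.39 to 0.39 over the 3 comparisons.

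In ATP synthase, 1 of 16 genes was called higher and 0 lower in the eGFP/tdTomato fraction, and 1 higher and 3 lower in the eGFP fraction. Atp5f1, which encodes the b subunit of the peripheral stalk, had 246, 218, 285 and 266 CPM in the eGFP/tdTomato libraries and 137, 245, 227 and 201 CPM in the eGFP libraries, against 345, 317, 359 and 288 CPM in the tdTomato libraries. Both sets lay wholly under the tdTomato libraries. It fell by 0.69 in the eGFP fraction (SE 0.19, edgeR adjusted p = 0.00925), a call kept in all 25 alternatives, and was at −0.37 in the eGFP/tdTomato fraction, not called (adjusted p = 0.162). Atp5o, the stalk protein that confers oligomycin sensitivity, rose in both (0.56, adjusted p = 0.047, and 0.55, adjusted p = 0.0423), but each call was lost in 18 of 25 alternatives, and antisense genes cover part of its exons. The catalytic subunits Atp5a1 and Atp5b were not called, at 0.06 and −0.06 in the eGFP/tdTomato and −0.39 and −0.63 in the eGFP fraction, where Atp5b passed as lower with the replicate block (adjusted p = 0.0159).

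The genes Atp5g1, Atp5g2 and Atp5g3 encode the same mature c subunit of the proton-driven ring, each with a different targeting peptide, and their proportions can be compared within a library. Atp5g2 had 29.6, 28.8, 40.1 and 34.1 CPM in the eGFP/tdTomato libraries and 14.7, 23.3, 37.3 and 24 CPM in the eGFP libraries, against 51.2, 40.4, 58.1 and 38.8 CPM in the tdTomato libraries. It fell by 0.92 in the eGFP fraction (SE 0.25, edgeR adjusted p = 0.00864) and was not called in the eGFP/tdTomato fraction (−0.51, adjusted p = 0.141). Atp5g1 fell in the eGFP fraction by 0.55 (adjusted p = 0.0485), a call lost without any one of 8 libraries, while Atp5g3 was not called (0.46 and 0.29). Per length, Atp5g3 took 63.9 ± 1.96% of the 3 genes in the eGFP/tdTomato fraction (62.1 to 66.5%) and 64.9 ± 1.70% in the eGFP fraction (63.4 to 67.1%), against 47.4 ± 4.0% in the tdTomato fraction (41.8 to 51.4%). These shares do not overlap the tdTomato range, and as ratios within a library they do not depend on how libraries were scaled. The share of Atp5g2 was 20.8 ± 1.26% and 17.8 ± 2.57%, against 30.3 ± 2.07% in the tdTomato fraction, and no test was run on these shares.

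Of the 17 calls in the eGFP/tdTomato fraction against tdTomato, 5 held in all 25 alternatives (Cox4i2, Cox7a1, Cox7b2, Cox8b and Ndufaf2) and 8 held without each single library. Of the 21 calls in the eGFP fraction, 9 held in all 25 (Cox4i2, Cox7a1, Cox7b2, Cox8b, Ndufa4l2, Cox6b2, Ndufaf2, Ndufa1 and Atp5f1) and 11 without each single library. No called member changed sign in any alternative. Near-identical copies could take or lend reads: 25 of 95 members have at least 1 annotated transcript elsewhere with 95% identity over 50% or more of their coding sequence, among them Atp5l (8 copies), Cycs and Atp5h (4 each) and, of the called members, Atp5f1, Atp5g1, Atp5g2, Atp5o, Cox5b, Cox6c, Ndufs5 and Uqcr10.

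Promoter windows were read for the members that carry these contrasts. Nuclear respiratory genes are known for promoter sites of NRF1 (nuclear respiratory factor 1), of the ETS factor GABPA (also called NRF2), of YY1 and of the oestrogen-related receptors, and the coactivator PGC-1alpha, encoded by Ppargc1a, works through several of these factors. RefSeq windows on GRCm38.p6, from 250 bases before to 50 bases after the start, were matched for 77 of 95 members and searched on both strands for gcgcatgc (NRF1), ccggaag (GABPA), aagatggc (YY1) and tcaaggtca (oestrogen-related receptors), of which none contains another. NRF1 letters were in 13 of 77 members (16.9%), against 3.94% of 17492 protein-coding genes. GABPA letters were in 18 (23.4%, against 12.9%), YY1 letters in 11 (14.3%, against 3.57%) and the receptor letters in 2 (2.6%, against 0.377%). The 250 bases before the start are given for cytochrome c, which was not called, for the called Sdhb and Atp5g2, for the pair Cox6b1 and Cox6b2, and for the muscle isoforms Cox7a1 and Cox8b, with matches in capitals and each read 5′ to 3′ on the strand of its gene.
Cycs promoter (chr6:50566570-50566819, minus strand): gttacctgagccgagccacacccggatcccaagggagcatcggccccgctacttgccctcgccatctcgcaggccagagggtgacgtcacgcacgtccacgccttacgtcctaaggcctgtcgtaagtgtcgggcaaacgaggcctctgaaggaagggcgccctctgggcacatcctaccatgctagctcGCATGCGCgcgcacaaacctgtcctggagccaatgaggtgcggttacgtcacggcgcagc
Sdhb promoter (chr4:140961021-140961270, plus strand): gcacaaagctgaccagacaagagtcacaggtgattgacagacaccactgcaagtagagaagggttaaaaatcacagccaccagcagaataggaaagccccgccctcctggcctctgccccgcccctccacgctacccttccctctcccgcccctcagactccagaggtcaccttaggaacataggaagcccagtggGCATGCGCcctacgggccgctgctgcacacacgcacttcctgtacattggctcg
Atp5g2 promoter (chr15:102671048-102671297, minus strand): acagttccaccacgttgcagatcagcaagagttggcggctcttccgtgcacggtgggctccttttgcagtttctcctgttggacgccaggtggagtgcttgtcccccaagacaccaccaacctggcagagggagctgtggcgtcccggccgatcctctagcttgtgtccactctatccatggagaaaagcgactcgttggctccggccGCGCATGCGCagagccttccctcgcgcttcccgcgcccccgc
Cox6b1 promoter (chr7:30626115-30626364, minus strand): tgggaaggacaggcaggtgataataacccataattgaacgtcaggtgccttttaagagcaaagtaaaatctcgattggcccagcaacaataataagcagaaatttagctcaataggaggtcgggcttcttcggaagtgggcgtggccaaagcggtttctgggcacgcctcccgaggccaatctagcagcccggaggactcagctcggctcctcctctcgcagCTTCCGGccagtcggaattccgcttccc
Cox6b2 promoter (chr7:4753095-4753344, minus strand): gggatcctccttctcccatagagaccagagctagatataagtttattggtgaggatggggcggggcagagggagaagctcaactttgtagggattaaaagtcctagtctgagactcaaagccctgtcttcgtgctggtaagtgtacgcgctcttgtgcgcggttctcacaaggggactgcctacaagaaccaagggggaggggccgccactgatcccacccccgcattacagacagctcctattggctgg
Cox7a1 promoter (chr7:30183921-30184170, plus strand): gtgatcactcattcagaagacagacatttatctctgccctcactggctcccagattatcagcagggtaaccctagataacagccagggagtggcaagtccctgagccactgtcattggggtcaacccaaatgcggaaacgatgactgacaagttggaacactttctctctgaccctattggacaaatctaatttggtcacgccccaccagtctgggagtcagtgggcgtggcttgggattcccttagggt
Cox8b promoter (chr7:140900447-140900696, minus strand): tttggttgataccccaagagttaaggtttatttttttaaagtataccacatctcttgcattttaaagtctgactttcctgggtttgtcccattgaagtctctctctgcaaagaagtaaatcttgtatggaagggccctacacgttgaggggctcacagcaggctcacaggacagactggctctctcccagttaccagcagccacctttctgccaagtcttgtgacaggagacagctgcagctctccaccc
The NRF1 letters lie 60 bases before the start of Cycs, 54 before that of Sdhb and 42 and 40 before that of Atp5g2, where 2 matches on opposite strands overlap. The GABPA letters lie 28 bases before the start of Cox6b1. None of the 4 motifs was found in these 250 bases of Cox6b2, Cox7a1 and Cox8b, and Cox7b2, Uqcr10, Ndufa1 and Ndufaf2 had none either. These absences do not cover the 50 bases after the start, which the member shares also count and which are not printed. For Cycs and Atp5g2 the bases just after the RefSeq start lie in no GENCODE transcript of the gene, so the starts of the 2 annotations differ there. A match says only that the letters are present, and these windows are not evidence of binding.

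Regulators of mitochondrial biogenesis were set beside the chain. List counts against tdTomato stand beside the shares called among protein-coding genes with a mean of at least 10 CPM. These were 24.8% higher and 27.6% lower in the eGFP/tdTomato fraction, and 23.6% and 34.7% in the eGFP fraction. No list was tested against these shares. Ppargc1a had 123, 102, 133 and 106 CPM in the eGFP/tdTomato libraries and 64.4, 79.1, 102 and 81.2 CPM in the eGFP libraries, against 2.00, 2.62, 2.23 and 2.55 CPM in the tdTomato libraries. It rose by 5.62 on the log2 scale in the eGFP/tdTomato fraction (SE 0.22, edgeR adjusted p = 1.36e-10) and by 5.12 in the eGFP fraction (SE 0.21, adjusted p = 1.91e-10), while the members' medians were 0.13 and −0.05. Of the 16 regulators tested, 4 were called higher and 2 lower in the eGFP/tdTomato fraction, and 3 higher and 3 lower in the eGFP fraction, with medians of 0.04 and −0.23. Esrrg, an oestrogen-related receptor (2.04 and 1.77), and the mitochondrial deacetylase Sirt3 (1.48 and 1.54) rose in both. Gabpb1, the partner of GABPA (−0.98 and −0.97), and Yy1 (−0.78 and −0.83) fell in both. Nrf1, Gabpa and the mitochondrial DNA factor Tfam were not called, with log2 fold changes of −0.20 to 0.13 in the eGFP/tdTomato fraction and −0.30 to −0.04 in the eGFP fraction.

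Other mitochondrial lists differed in direction, and their counts stand beside the same shares of 24.8% and 27.6%, and 23.6% and 34.7%. Of 9 supercomplex and hypoxia modulators, 4 were called higher and 0 lower in each eGFP-bearing fraction: Chchd10, a cristae protein (32.8 ± 4.82 and 32.9 ± 10.6 CPM, against 0.422 ± 0.115 CPM in tdTomato), Hif3a (22.8 and 14.1 CPM against 0.511 CPM), the prolyl hydroxylase Egln3 (23.2 and 15.9 CPM against 2.99 CPM) and Higd1a. Of 18 genes of the tricarboxylic acid cycle and pyruvate dehydrogenase, 6 were called higher and 0 lower in the eGFP/tdTomato fraction, led by Suclg2 (2.63), Idh3g (1.47) and Pdha1 (1.09), and 3 higher and 1 lower in the eGFP fraction. The GTP-forming Suclg2 averaged 113 ± 13.4 CPM in the eGFP/tdTomato and 78.4 ± 14.8 CPM in the eGFP fraction, against 18.3 ± 3.84 CPM in the tdTomato fraction. Of 13 ubiquinone genes, 1 was called higher and 1 lower in the eGFP/tdTomato fraction, Coq10b (1.65) and Coq10a (−1.32), and 1 higher and 3 lower in the eGFP fraction.

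The lists of genes that make and import mitochondrial proteins held more lower than higher calls, as did protein-coding genes with a mean of at least 10 CPM in general. Of 77 mitochondrial ribosomal genes tested, 13 were called lower and 4 higher in the eGFP/tdTomato fraction, and 23 lower and 5 higher in the eGFP fraction, with median log2 fold changes of −0.17 and −0.24. Of 23 import genes, 6 were called lower and 3 higher in the eGFP/tdTomato fraction, and 9 lower and 2 higher in the eGFP fraction. The import receptor Tomm20 had 73.5 ± 8.71 CPM in the eGFP/tdTomato and 57.1 ± 14.1 CPM in the eGFP fraction, against 203 ± 19.4 CPM in the tdTomato fraction (−1.47 and −1.83). Timm17a of the inner membrane fell by 1.37 and 1.26 on the log2 scale, and Tomm70a by 0.96 and 1.28. Of 32 assembly factors of complexes II to V, 3 were called higher and 3 lower in the eGFP/tdTomato fraction, and 2 higher and 4 lower in the eGFP fraction. Among them Uqcc3, a complex III factor, rose in both (0.94 and 0.97), and Atpaf1, an ATP synthase assembly factor, fell in both (−1.15 and −1.48). Between the eGFP/tdTomato and eGFP fractions, 0 genes of any of these lists were called by edgeR.

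**Figure D5:**
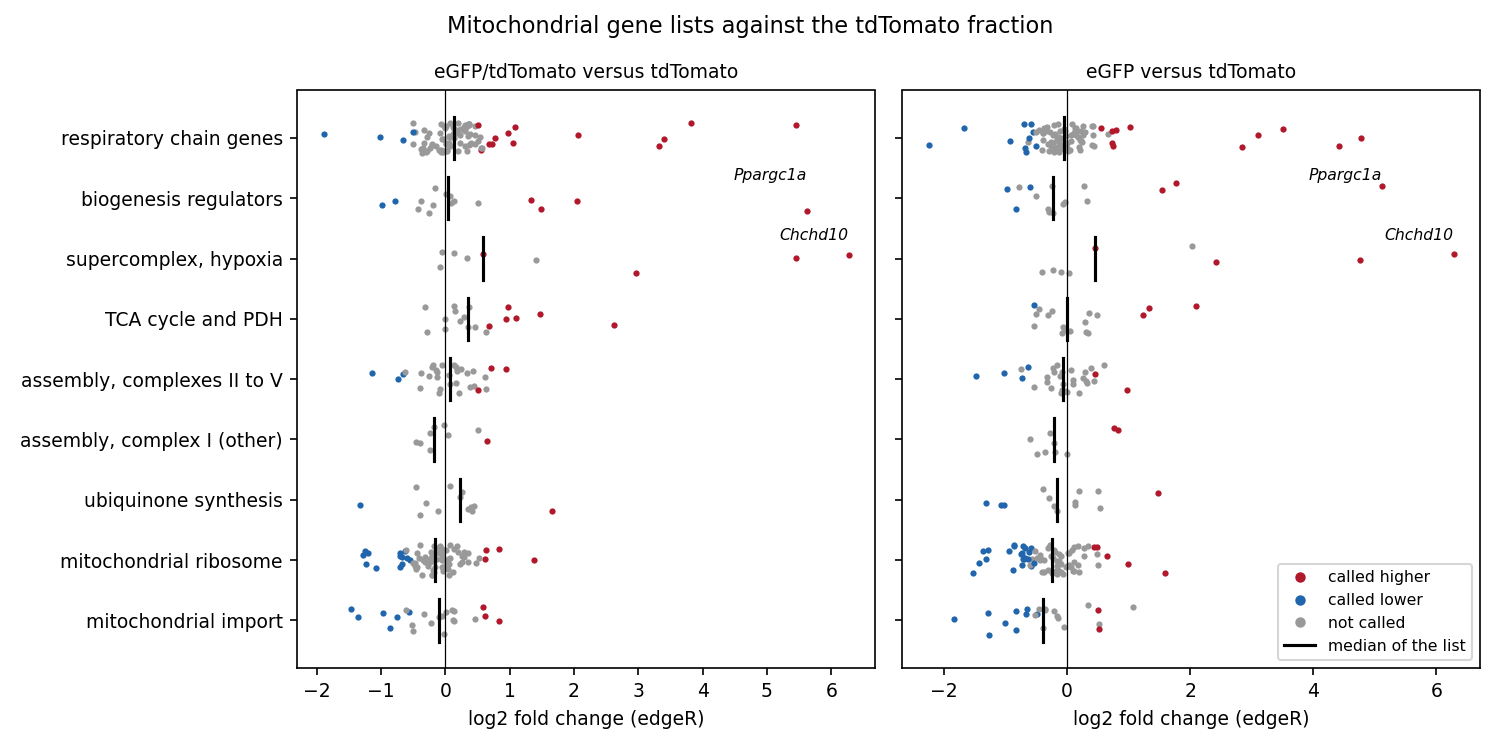
The log2 fold change against the tdTomato fraction of each tested gene of the respiratory chain and of 8 further mitochondrial lists, with the eGFP/tdTomato fraction on the left and the eGFP fraction on the right. Red points were called higher, blue lower and grey not called, and black bars mark list medians. The median of the chain lies near 0 while Ppargc1a and Chchd10 lie above 5 in both panels.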

How the data were processed

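RNA of 12 libraries from sorted spinal cord glia was sequenced on the BGISEQ-500, and the deposited values are raw counts of reads per gene; per the submitters' processing notes STAR and HTSeq were used with GRCm38 (mm10), while strand mode and annotation release are not given in the sources used here. Identifiers were matched to GENCODE M21 (53360 of 53465). Read classes that name no gene stayed out of library sizes; the share outside genes was 21.2 to 57.1%. The members and lists were chosen with earlier results of these data known.

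All 12 libraries entered 1 edgeR 4.0.16 quasi-likelihood fit (R 4.3.3, TMM factors, low-count filter by fraction), with Benjamini-Hochberg adjustment over 29361 genes and calls at an adjusted p of 0.05; every adjusted p in the text comes from edgeR unless another tool is named. The fit was tested on simulated data with known changes. CPM are counts scaled to a common library size with TMM factors, and levels per length divide them by the longest principal transcript. Because the median of all genes lies off 0 against tdTomato (0.70 and 0.79 on the log2 scale; 0.57 in the first with DESeq2's size factors), changes are relative to this scaling. Intervals cover the spread between libraries, and pooled-count ratios cover counting error alone.

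The labels give the fractions the same replicate numbers. Over 12034 genes, the deviations of same-numbered libraries from their fraction means correlated at 0.149 to 0.494 between eGFP/tdTomato and tdTomato. The values were 0.142 to 0.405 between eGFP and tdTomato and 0.027 to 0.632 between eGFP/tdTomato and eGFP. The own number correlated best in each case between eGFP and tdTomato. It did not for replicate 1 of eGFP/tdTomato against tdTomato, nor for replicates 1, 2 and 5 of eGFP/tdTomato against eGFP. Whether the numbers pair the libraries is thus not settled. The main fit has no term for the number and treats libraries as unpaired, and the replicate block is the alternative that uses it. The p-values measure the spread between libraries, which may be technical in part. Alternatives were DESeq2 1.42.0, limma-voom (limma 3.58.1), other scalings and filters, a covariate for reads outside genes, a replicate block and libraries left out. Text genes are the isoform families and core subunits, the 10 called members of largest change per direction with at least 5 CPM, the highest and lowest per complex, and up to 3 called genes per list and direction; isoform genes under 5 CPM belong to the families, and further called members, Higd1a and uncalled regulators were added after their values were seen. Genes picked by likeness of pattern were not named, and the values of 1 member are not reported here. Near-identical copies were found with BLAST+ 2.17.0, and figures were drawn with matplotlib 3.10.9 (Python 3.11.15).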

Additional observations from a re-analysis of the deposited data

Results flagged for a closer look

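In 6 of 168 groups of 4 libraries, 1 library lay far from the other 3 by Dixon's test, where chance gives about 1 in 20 groups. In the eGFP fraction, Ndufs1 had 87.7 CPM in replicate 1, against 146 to 151 CPM in the others. Replicate 2 of the same fraction was high for 3 genes: Sdhb had 332 CPM there, against 231 to 240 CPM, Ndufa1 had 289 CPM, against 179 to 196 CPM, and Ndufc1 had 128 CPM, against 80.6 to 88.7 CPM. In the tdTomato fraction, Cox5b had 121 CPM in replicate 5, against 200 to 214 CPM, and the muscle isoform Cox6a2 had 0.446 CPM in replicate 3, against at most 0.0445 CPM in the others. The calls of Ndufa1 in both comparisons with the tdTomato fraction held without eGFP replicate 2.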

How the results depend on the processing

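Each comparison was run under 25 alternatives. Against the eGFP fraction, no member was called higher or lower in the eGFP/tdTomato fraction in any of them except by DESeq2, which called 1 lower. The members' median log2 fold change minus that of all genes was 0.210, ranged from −0.0662 to 0.38 with single libraries left out, and was −0.00438 with the covariate for reads outside genes and −0.0849 without the 3 libraries numbered 1. In the eGFP/tdTomato fraction against tdTomato, with 13 higher and 4 lower, single libraries left out gave 7 to 13 higher and 1 to 15 lower. Lower members were 8 with TMM factors from protein-coding genes, 9 with DESeq2, 12 with a filter of 1 CPM in 4 libraries, 14 with only these fractions in the fit, 2, 2, 7 and 2 without the libraries numbered 1, 2, 3 and 5, and 3 with the covariate. Higher members were 43 with the covariate, and 4 and 8 without the libraries numbered 3 and 5. Over all genes, lower calls were 12.4% in the main fit. They were 15.2% with those TMM factors, 16.8% with DESeq2, 25.1% with the filter and 21.3% with only these fractions. Without the libraries numbered 1, 2, 3 and 5 they were 10.5%, 8.72%, 14.7% and 10.5%, and 11.8% with the covariate. Higher calls went from 16.8% to 18.2% with the covariate, and 11.6% and 14.3% without the libraries numbered 3 and 5. In the eGFP fraction against tdTomato, with 11 higher and 10 lower, single libraries left out gave 6 to 12 higher and 5 to 15 lower. Lower members were 18 with the 1 CPM filter, 3 with the covariate and 3 without the libraries numbered 1, and higher members were 27 with the covariate and 6 without the libraries numbered 3. Over all genes, lower calls were 26.5%, 12.3% and 12.2% in these settings, against 14.9% in the main fit. Higher calls were 18.6% and 15.8%, against 20.4%. The median minus that of all genes was −0.572 for eGFP/tdTomato and −0.844 for eGFP, with single libraries left out −0.907 to −0.425 and −1.2 to −0.352, and it turned to 0.114 and 0.127 with the covariate. Its sign also depends on the genes set beside the members. In the main fit the members' medians, 0.132 and −0.0544, lay above those of protein-coding genes with a mean of at least 10 CPM, −0.136 and −0.264. Uqcrc2 changed sign in the eGFP fraction, to 0.362 with the covariate (edgeR adjusted p = 0.0435). The cause of these shifts was not tested. The replicate block gave 16 higher and 4 lower, and 13 higher and 12 lower, kept every called member, and let 5 more named members pass, as given beside them. Over all genes the block called 21.1% higher and 14.1% lower in the first of these, and 24.3% and 17.2% in the second. Between the eGFP/tdTomato and eGFP fractions the block gave 0 and 0, and a pairing by number is least clear there. With 4 libraries a fraction, Cox6a2 and Cox8c were too low to test.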
